A study of Homo sapiens with 12 samples.

Results

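The sgRNA4 peak list gave 13660 regions of the human genome that were occupied by dCas9 together with the guide RNA sgRNA4, out of 58042 regions in the 9 peak lists analysed. Every row of that list was taken, with no filter on score, width or position. dCas9 is a form of the Cas9 nuclease that binds DNA without cutting it. The cells were HEK 293T, an established cell line derived from human embryonic kidney and expressing SV40 large T antigen. They were transfected with HA-tagged dCas9 and 1 single guide RNA (sgRNA) and collected after 3 days, and DNA bound to the tagged protein was recovered with an antibody against HA and sequenced (ChIP-seq). The lists of the 5 other guides came from the same line, protein and antibody and differed in the guide: sgRNA1, sgRNA2 and sgRNA3 with 2 replicates each, sgRNA5 and sgRNA6 with 1 library each. dCas9 was supplied by transfection in every group. The intended target of sgRNA4 was not used here, so no peak is marked as on target. The library with dCas9 and no guide was not analysed here, and no value below has a background measured without a guide. Since sgRNA4 was represented by 1 library, its values carry no replicate error, and no test between guides was made.

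Cas9 finds its target in 2 steps. The protein first samples DNA for a short protospacer adjacent motif, and the guide RNA then pairs with the neighbouring strand, starting at the seed, the part of the guide closest to that motif. A match of the seed alone can hold dCas9 on DNA, whereas cutting by the active enzyme needs a longer match, so maps of dCas9 binding usually list more places than are cut. Open chromatin is known to be easier for the protein to reach, and it is also recovered more readily than closed chromatin in many ChIP-seq experiments.

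Each peak carried a start, an end and a score given by the authors' peak caller, MACS, where a higher score stands for a less likely pile-up of reads. The score depends on the sequencing depth of its own library, so scores were used here to rank peaks within a list and never to compare heights between guides. Read depth is unknown for all libraries, as the lists hold no read counts. Positions are on the hg19 build, counted from 1.

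Most sgRNA4 peaks lay close to the lower limit of the score. No score was below 50, the median was 75.3, and the middle 50% of peaks lay between 59.3 and 109.8. A score of 100 or more was reached by 4076 peaks (29.8%), 200 or more by 871 (6.38%), 500 or more by 86 (0.630%) and 1000 or more by 20 (0.146%). The list therefore had a small number of very high peaks above a large body of low ones. In the sgRNA5 list 12 peaks (0.144%) scored 500 or more, and in the sgRNA6 list 815 (2.42%). These shares are set side by side only, because the scores come from libraries of unknown depth.

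**Figure D1:**
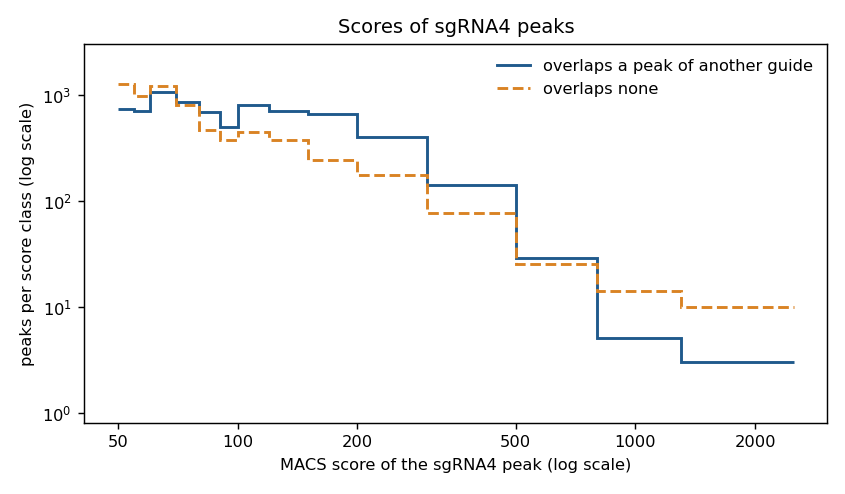
Number of sgRNA4 peaks per score class, on logarithmic axes, for the 7247 peaks that overlapped a peak of another guide (solid line) and the 6413 that overlapped none (dashed line). Peaks without overlap are the more numerous below a score of 70 and again from 800 upwards, with 14 against 5 from 800 to under 1300 and 10 against 3 above that.

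The peaks covered 11.2 Mb in all. Widths ran from 232 to 7193 bp, with a median of 751 bp and the middle 50% between 588 and 971 bp. Chromatin had been sheared to an average of about 300 bp, so a typical peak was wider than 1 fragment. Higher peaks were wider. From the top of the list down, median width was 1170.5 bp in the 100 highest peaks, 1143 bp in the next 400, 1051.5 bp in the next 500, 881 bp in the next 4000 and 678 bp in the remaining 8660. Over all 13660 peaks of this 1 library, Spearman's rho of score with width was 0.44, a description across peaks. In the sgRNA5 and sgRNA6 lists it was 0.48 and 0.51.

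Most of the highest sgRNA4 peaks were at places where no other guide had a peak. The first 2 lay near chromosome ends, at chr19:1768687-1769547 (score 2436) and at chr22:49661256-49662514 (2254), and neither overlapped a peak of another guide. The nearest peak of any other guide was 1.77 kb away from the first and 20.98 kb away from the second. The next was at chr5:1229490-1230702 (2129.6). It overlapped a sgRNA6 peak with a score of only 64.0, rank 25419 of 33611 in that list. The peak at chr16:57601798-57604251 (1901) was 2454 bp wide and stood 21.04 kb from any peak of another guide.

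Of the 10 highest peaks, 8 overlapped no other guide. The peak at chr17:3582814-3584504 (score 1712) was the second of the 10 with an overlap, again with a low sgRNA6 peak (60.5, rank 26878). The peak at chr9:91672868-91675539 (1695) was 34.4 kb from the nearest peak of another guide. Peaks at chr6:110422901-110423504 and at chr7:123332465-123333033 had the same score, 1689, and were narrow for their rank, 604 and 569 bp. The chromosome 7 peak was also isolated within its own list, with the nearest sgRNA4 peak 2296 kb away.

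The remaining 2 of the 10 highest lay on the sex chromosomes. One was at chrX:1743071-1744293 (score 1773) and the other at chrY:1693095-1694013 (1688). Both are in the pseudoautosomal region at the tip of the short arms, a stretch of sequence that X and Y share and that the hg19 build holds on both chromosomes. The X peak started 49976 bp and ended 50280 bp further along than the Y peak. A second pair, at chrY:297798-298411 (70.4) and chrX:347643-348414 (84.1), had nearly the same offset, 49845 bp at the start and 50003 bp at the end. Reads from shared sequence can be placed on either copy, and the list does not tell the copies apart. Peaks on X and Y are counted separately here, also among the 10 highest, although such a pair can stand for the same place. None of the 5 sgRNA4 peaks on chromosome Y overlapped a peak of another guide. The other 3 scored 50.6 to 58.8 and had no X peak at that offset.

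The highest peak of each of the 24 chromosomes scored between 449 (chr10:43583109-43584350) and 2436, with a median of 1369. For 18 of the 24 chromosomes it overlapped no other guide, beside 46.9% of all peaks of the list. These 24 peaks ranked between 1 and 115, and of the 100 highest peaks 55 overlapped no other guide. The X and Y peaks named above, which can stand for the same place, are both counted in the 18. Also among the 18 was the peak at chr14:44973749-44974783 (score 576). It stood 574.7 kb from the nearest peak of another guide and 456.0 kb from the nearest sgRNA4 peak. The peak at chr12:129787398-129788275 (848) stood 112.5 kb from another guide's peak. On chromosome 18 the highest peak, at chr18:9866173-9867127, scored 466.

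Over the whole list, 7247 of 13660 sgRNA4 peaks overlapped a peak of at least 1 other guide by 1 bp or more. This is 53.1% of the list, with an exact binomial (Clopper-Pearson) 95% interval of 52.2 to 53.9 that covers counting error only, as do all intervals below. The number of other guides at a place fell off quickly: 4313 peaks (31.6%) were met by 1 other guide, 2132 (15.6%) by 2, 602 (4.41%) by 3, 176 (1.29%) by 4 and 24 (0.176%) by all 5. The rule was rarely decided by a few bases. The longest overlap of a shared peak had a median of 658 bp, and 125 shared peaks overlapped by less than 100 bp (median score 75.2). On the other side, 188 unshared peaks ended less than 100 bp from a peak of another guide (median score 69.2).

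The long sgRNA6 list accounted for most of this overlap. It met 6599 sgRNA4 peaks (48.3%, 47.5 to 49.2) and the sgRNA5 list met 3149 (23.1%, 22.3 to 23.8), whereas 1200 (8.78%, 8.32 to 9.27) were met by sgRNA1, sgRNA2 or sgRNA3. Of the shared peaks, 3754 were found with sgRNA6 and no other list, 1817 with sgRNA5 and sgRNA6, and 476 with sgRNA5 alone. Seen from the other lists, 20.1% of the 33611 sgRNA6 peaks, 38.2% of the 8346 sgRNA5 peaks, 59.7% of the 1339 sgRNA1 peaks, 64.9% of the 612 sgRNA2 peaks and 55.2% of the 406 sgRNA3 peaks overlapped a sgRNA4 peak. A longer list offers more peaks to meet, so the shares do not order the guides by likeness to sgRNA4. Without the sgRNA6 list the shared part of the sgRNA4 list was 25.6%. With peaks scoring below 100 left out of every list, 11.8% of sgRNA4 peaks met sgRNA5. This limit keeps unequal parts of the lists, as the median score was 75.3 with sgRNA4, 66.1 with sgRNA5 and 89.97 with sgRNA6.

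Shared peaks were as a rule higher and wider than unshared ones. Their median score was 84.1 (middle 50% from 63.7 to 123.5) against 68.3 (56.9 to 92.5), and their median width 843 bp (666 to 1091.5) against 658 bp (520 to 829). Both ranges overlapped broadly. The more guides met at a place, the higher and wider the sgRNA4 peak: median score was 77.7 with 1 other guide, 92.5 with 2, 100.8 with 3, 130.4 with 4 and 232.7 with all 5, and median width rose over the same steps from 800 to 899, 934.5, 1121.5 and 1199 bp. A wide peak offers more bases to the overlap rule, and sharing is therefore also given by width.

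The share of peaks met by another guide rose with score and then fell at the top of the list. It was 39.1% (37.5 to 40.7) for scores of 50 to under 60, 56.5% (54.6 to 58.3) for 75 to under 100, 67.1% (65.5 to 68.7) for 100 to under 200 and 69.5% (65.6 to 73.3) for 200 to under 300. From 300 to under 500 it was 65.0% (58.2 to 71.3), and at 500 or more it was 43.0% (32.4 to 54.2). By rank, 45 of the 100 highest peaks were shared (45%, 35.0 to 55.3), against 622 of the next 900 (69.1%, 65.98 to 72.1), 64.6% of the next 4000 and 46.1% of the remaining 8660. Without the sgRNA6 list, 29 of the 100 highest and 421 of the next 900 were shared. Of the 20 peaks that scored 1000 or more, 4 were shared. The boundary at rank 100 was arbitrary: the peak of rank 100, at chr14:53257631-53258635, scored 468.6 and the next, at chr19:36230825-36231803, scored 468.2, and both were shared.

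**Figure D2:**
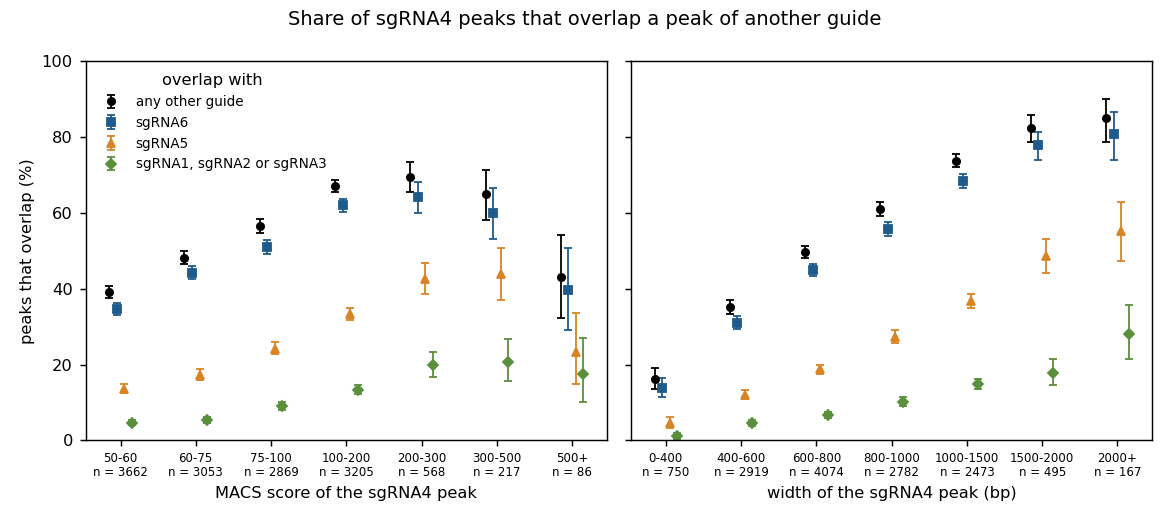
Percent of sgRNA4 peaks that overlapped a peak of any other guide, of sgRNA6, of sgRNA5, or of sgRNA1, sgRNA2 or sgRNA3, by score (left) and by width (right); points are shares, bars exact binomial 95% intervals, and n the peaks in each class. With score, overlap with any other guide rises from 39.1% to 69.5% and ends at 43.0%, and with width it rises from 16.3% to 85.0%.

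Width did not follow the same course. Sharing rose in every step of width, from 16.3% (13.7 to 19.1) under 400 bp to 49.7% (48.1 to 51.2) at 600 to under 800 bp, 73.8% (72.0 to 75.5) at 1000 to under 1500 bp and 85.0% (78.7 to 90.1) at 2000 bp or more. Within a width class, the peaks scoring 500 or more were shared less often than those scoring 100 to under 500 in every class from 600 bp upwards. At 1000 to under 1500 bp, 14 of 30 such peaks were shared (46.7%, 28.3 to 65.7), against 1018 of 1284 (79.3%, 77.0 to 81.5). At 2000 bp or more the counts were 2 of 10 (20%, 2.52 to 55.6) and 109 of 116 (94.0%, 88.0 to 97.5). The intervals of these score groups overlapped at 600 to under 800 bp (1 of 6, 0.42 to 64.1, against 473 of 834, 53.3 to 60.1). They also did at 1500 to under 2000 bp (12 of 19, 38.4 to 83.7, against 289 of 335, 82.1 to 89.8). From 400 to under 600 bp only 4 peaks scored 500 or more, of which 2 were shared.

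Each of the longer lists showed the fall at the top. Overlap with sgRNA6 was 64.1% (59.99 to 68.0) at scores of 200 to under 300 and 39.5% (29.2 to 50.7) at 500 or more, and with sgRNA5 the values were 42.6% (38.5 to 46.8) and 23.3% (14.8 to 33.6). With sgRNA1, sgRNA2 or sgRNA3 they were 19.9% (16.7 to 23.4) and 17.4% (10.1 to 27.1), with intervals that overlapped.

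The lists of sgRNA5 and sgRNA6 were read in the same way. The sgRNA5 list had no fall at the top: 90.4% (81.9 to 95.7) of its highest 1% of peaks overlapped another guide, 90.7% (88.4 to 92.7) of the remainder of its highest 10%, and 65.1% of the whole list. With sgRNA4 the same shares were 50.7% (42.0 to 59.4), 70.4% (67.8 to 72.9) and 53.1%. With sgRNA6 they were 51.8% (46.3 to 57.2), 55.7% (53.9 to 57.5) and 27.1%, and its 100 highest peaks were at 28% (19.5 to 37.9). These are values of 1 library each and were not tested against each other. Each list was also searched against a different set of other lists.

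The sgRNA6 partners of the 10 highest shared sgRNA4 peaks differed widely in score. The 10 highest shared peaks included, besides those on chromosomes 5 and 17, one at chr19:2712745-2714583 (score 1327), met by sgRNA3 (54.6) and sgRNA6 (64.5), and one at chr7:590937-592415 (790.0), met by sgRNA6 (57.5). In the peak at chr13:77899794-77901612 (948), the partners scored 114 with sgRNA5 and 90.4 with sgRNA6. Others of the 10 had higher sgRNA6 partners. At chr1:78353709-78355022 (1242), sgRNA6 scored 479 (rank 906), sgRNA5 117 and sgRNA1 55.8. At chr16:30708845-30710406 (851), sgRNA6 scored 392, sgRNA5 118 and sgRNA2 55.9. The last 3 lay at chr6:150518437-150519738 (921), chr4:113152935-113153780 (835) and chr8:48099945-48101062 (769), the last with 4 other guides.

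Over all 6599 peaks shared with sgRNA6, scores in the 2 lists were only loosely related (Spearman's rho 0.15), as they were over the 3149 peaks shared with sgRNA5 (0.14). These are descriptions across peaks, in which each axis is 1 library. The partner peaks nevertheless stood above the general level of their lists, with a median score of 142.9 against 89.97 for all sgRNA6 peaks and 78.1 against 66.1 for all sgRNA5 peaks. Among the 41 of the 100 highest sgRNA4 peaks that sgRNA6 met, the sgRNA6 score ran from 50.7 to 1065 with a median of 139.8. Of these 41 partners, 16 were in the highest 10% of the sgRNA6 list, a larger part than the 23.9% over all peaks shared with sgRNA6. For the 324 peaks that sgRNA6 met in the 500 that end at rank 1000, the median sgRNA6 score was 197.1. A similar part of their partners, 121 of 324, was in the highest 10%. The median distance between centres of shared peaks was 173 bp with sgRNA6 and 151 bp with sgRNA5. The median overlap took in 82.0% and 72.3% of the sgRNA4 peak. Not all pairs lay so close. With at least 50% of both peaks overlapping, sgRNA6 met 35.0% of the list in place of 48.3%, and sgRNA5 17.1% in place of 23.1%.

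**Figure D3:**
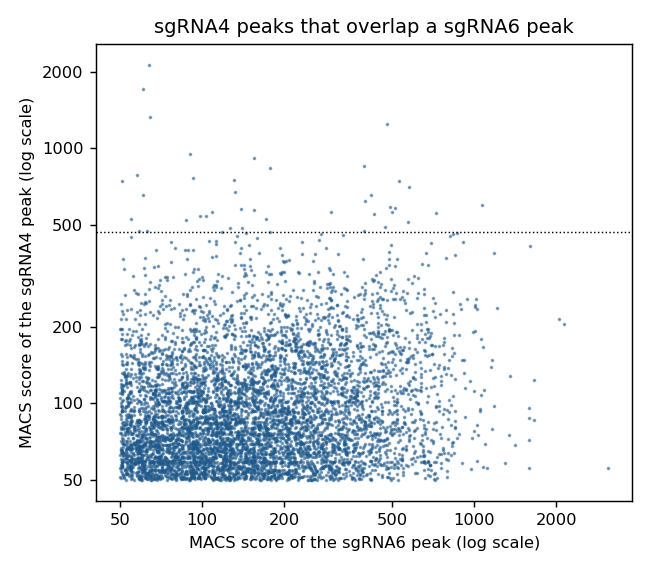
Score of each of the 6599 sgRNA4 peaks that overlapped a sgRNA6 peak (vertical) against the highest score of the sgRNA6 peaks it overlapped (horizontal), both on logarithmic axes; the dotted line marks the lowest score of the 100 highest sgRNA4 peaks, 468.6. Points fill the lower left with little slope (Spearman's rho 0.15), and the top sgRNA4 peaks are spread over sgRNA6 scores from 50.7 to 1065.

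The 24 peaks met by all 5 other guides were not the highest of the sgRNA4 list. The top one, at chr15:68132053-68132939, scored 602 and ranked 59, although the peaks it met ranked 1 in the merged sgRNA1 list, 2 with sgRNA2, 1 with sgRNA3 and 1 with sgRNA5. Its sgRNA6 partner ranked 109. The following 4 lay at chr6:131948856-131949805 (461), chr17:19551116-19552722 (431), chr13:88323225-88325080 (368) and chr5:131131762-131133314 (293). By summed rank with sgRNA5, the chromosome 15 peak came first, followed by peaks at chr16:30933408-30935139 (514, and 352 with sgRNA5) and chr9:82184893-82186913 (703, and 253 with sgRNA5), the chromosome 17 peak, and one at chr1:67390278-67391476 (348, and 337 with sgRNA5). With sgRNA6 the order after chromosome 15 was chr1:33282763-33284304 (413, and 1596 with sgRNA6), chr1:155292789-155295768 (390, and 1178), chr5:137088603-137090965 (466, and 865) and the same chromosome 17 peak (906 with sgRNA6). The best placed of them in the sgRNA4 list was the chromosome 9 peak, at rank 44.

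Unshared peaks were seldom near misses. Their median gap to the nearest peak of another guide was 6783 bp, and 778 of 6413 (12.1%) lay within 500 bp of one, 3738 (58.3%) within 10 kb and 5963 (93.0%) within 100 kb. For the 55 unshared peaks of the 100 highest, 21 (38.2%, 25.4 to 52.3) lay within 10 kb of another guide's peak. Those 55 had a median score of 732.0 and a median width of 1153 bp, against 576 and 1302 bp for the 45 shared ones.

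Spacing was uneven. The gap from a sgRNA4 peak to the nearest other one, on either side, had a median of 20607 bp, with the middle 50% between 4260.5 and 76780 bp. The list held on average 1 peak per 222.3 kb, and 5105 peaks (37.4%) had another within 10 kb. Among peaks scoring 100 or more alone, 15.3% had one. No 2 peaks of the list overlapped, yet 961 (7.04%) lay within 300 bp of the next, about the length of a sheared fragment. With peaks less than 1000 bp apart joined, 28.2% had a neighbour within 10 kb. Shared peaks had a neighbour within 300 bp in 9.55% of cases and unshared ones in 4.19%, and within 10 kb in 38.8 and 35.8%. In the sgRNA5 list, 22.2% of peaks had a neighbour within 10 kb at 1 peak per 363.9 kb, and in the sgRNA6 list 56.0% at 1 per 90.3 kb. Of the 100 highest sgRNA4 peaks, 32% lay within 10 kb of another peak of the list.

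Joined across gaps of 10 kb or less, the list formed 10597 runs, of which 8555 were single peaks and 584 held 3 or more. The 3 with the most peaks were at chromosome ends: 15 peaks over 65.0 kb at chr19:1230841-1295815 (scores 50.8 to 268.6, 9 shared), 11 over 50.7 kb at chr19:1469960-1520654 (51.3 to 92.5, 5 shared), and 10 over 44.7 kb at chr17:79475810-79520491 (51.4 to 253.9, 4 shared). The median scores within these runs were 114.8, 71.0 and 78.2, beside 75.3 for the list. Counted in windows of 1 Mb, the densest were chr19:1000001-2000000 with 91 peaks, which also held the highest peak of the list, chr17:79000001-80000000 with 81 and chr16:30000001-31000000 with 64. In the chromosome 16 window 45 of 64 peaks (70.3%) were shared, against 45 of 91 (49.5%) and 40 of 81 (49.4%) in the others. The 56 windows with 30 peaks or more held 16.3% of the list, while 838 of 3051 windows (27.5%) held none.

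The longest spans between neighbouring sgRNA4 peaks were at chr1:121139528-143743303 (22.6 Mb), chr9:46687943-66457208 (19.8 Mb) and chr16:34760658-46607268 (11.8 Mb). Stretches before the first or after the last peak of a chromosome were not counted. These 3 chromosomes are known for large blocks of heterochromatin next to the centromere, much of it unsequenced in hg19. The other lists were almost empty there too, with 5, 4 and 1 sgRNA6 peaks and 4, 2 and 0 sgRNA5 peaks. Whether reads could be placed there was not tested.

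The density of peaks differed widely between chromosomes. Per Mb, with length counted as far as the outermost peak of the 9 lists, chromosome 19 had 17.9, chromosome 17 14.2, chromosome 22 11.2 and chromosome 16 7.31 peaks, whereas chromosome 18 had 1.77, chromosome 4 2.03 and chromosome 13 2.05. Length starts at position 1 and so takes in the largely unsequenced short arms of the acrocentric chromosomes, 13 and 22 among those named. Their densities are lowered by this, so these values do not place them exactly in the order. Chromosomes 19, 17 and 22 are known to be rich in genes, and 18, 4 and 13 poor. Shared and unshared peaks followed a similar order, with 8.77 and 9.12 per Mb on chromosome 19 and 0.885 each on chromosome 18. Together, chromosomes 16, 17, 19 and 22 held 24.5% (23.6 to 25.6) of shared and 26.0% (24.9 to 27.1) of unshared peaks, a difference of 1.43 percentage points with a range of -0.65 to 3.51 when the margins of both intervals are added. Among peaks scoring 100 or more in every list, it was 6.78 points (3.08 to 10.5), with 19.9% of shared and 26.7% of unshared peaks on these chromosomes. The shared part of a chromosome's peaks lay between 46.9% (41.5 to 52.2, chromosome 20) and 59.4% (55.5 to 63.2, chromosome 6), chromosome Y apart.

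**Figure D4:**
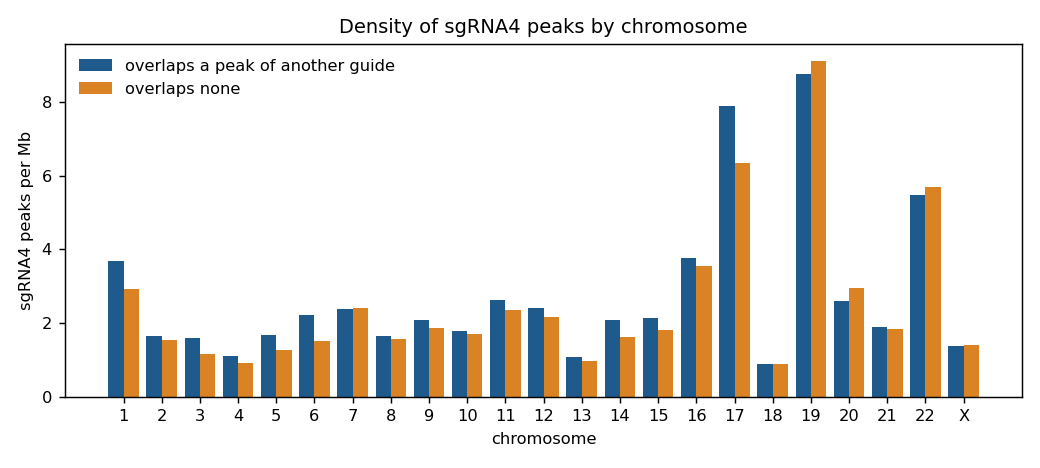
sgRNA4 peaks per Mb on each chromosome but Y, separately for peaks that overlapped a peak of another guide (blue) and for those that did not (orange), with length counted as in the text. Both bars are tallest on chromosome 19 (8.77 and 9.12 per Mb) and shortest on chromosome 18 (0.885 each).

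Density by chromosome was nearly the same thing for the 3 long lists. Over 23 chromosomes, sgRNA4 peaks per Mb had a Pearson r of 0.99 with sgRNA5 and of 0.99 with sgRNA6 (Spearman's rho 0.96 and 0.98), given as a description across chromosomes that share their gene content and sequence. Peak height showed little relation to density (Pearson r of median score with density -0.16). Median score lay between 72.3 (chromosome 22) and 83.1 (chromosome 3), chromosome Y apart, and chromosome 19, with the highest density, was at 73.1. The 100 highest peaks were spread over 22 chromosomes, with 10 each on chromosomes 1 and 16, 9 on chromosome 17, 8 on chromosome 15 and 5 on chromosome 19.

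Within chromosomes, the ends were dense in peaks. The first and last 2 Mb of the chromosomes had 15.8 peaks per Mb, the next 3 Mb 8.89, and positions from 20 to 50 Mb inwards 4.04. In all, 2676 of 13655 peaks outside chromosome Y (19.6%, 18.9 to 20.3) lay within 5 Mb of an end, a stretch that makes up 7.58% of the length. The corresponding shares were 19.9% (19.4 to 20.3) for sgRNA6 and 12.9% (12.2 to 13.6) for sgRNA5. The ends were taken from position 1 and from the outermost peak of the 9 lists. On the acrocentric chromosomes, whose short arms are largely unsequenced, the first stretch can hold no peak.

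Sharing was lower at the ends. In the outermost 2 Mb 43.6% (41.0 to 46.2) of sgRNA4 peaks were met by another guide, from 2 to 5 Mb 43.3% (40.5 to 46.1), from 10 to 20 Mb 53.0% (50.9 to 55.1), and beyond 50 Mb 58.3% (56.5 to 60.1). Put differently, 23.6% of unshared and 16.05% of shared peaks were within 5 Mb of an end. Width went the other way from sharing, with a median of 794 bp in the outermost 2 Mb and 737 bp beyond 50 Mb. Median score, like sharing, was lower at the ends: 74.7 in the outermost 2 Mb, 71.4 from 2 to 5 Mb and 77.9 beyond 50 Mb. Whether width or score bears on the sharing near the ends was not tested.

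**Figure D5:**
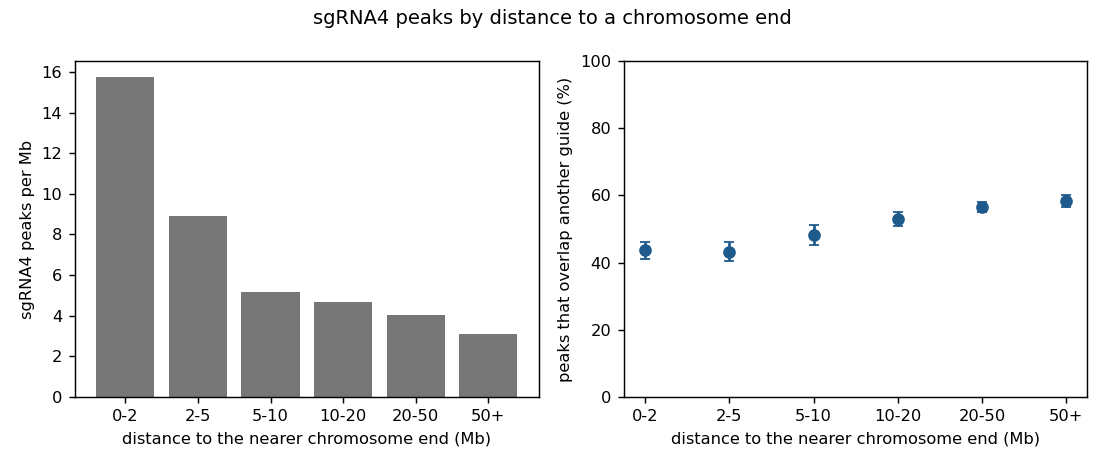
sgRNA4 peaks per Mb (left) and the percent of them that overlapped a peak of another guide, with exact binomial 95% intervals (right), by distance to the nearer chromosome end, without chromosome Y. Density falls from 15.8 to 3.10 per Mb away from the ends, while the shared part rises from 43.6% to 58.3%.

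Unshared peaks among the 100 highest were often near an end. Of the 54 unshared peaks among the 100 highest, chromosome Y apart, 28 lay within 5 Mb of an end (51.9%, 37.8 to 65.7), against 9 of the 45 shared ones (20%, 9.58 to 34.6) and 19.6% of the list. Shared and unshared together, 37 of 99 of the 100 highest did (37.4%, 27.9 to 47.7). Of the 20 peaks that scored 1000 or more, 10 lay within 5 Mb of an end and 1 on chromosome Y. These included peaks at chr11:895739-897514 (1496) and chr11:960818-962374 (1036), chr5:2145243-2147316 (1057) and chr19:55967290-55968203 (1103), all unshared. In this order, the nearest peak of another guide was only 0.27, 2.48, 5.38 and 3.94 kb away. Others of that height lay far inside, as at chr15:30240939-30242983 (1220.1) and chr15:69675284-69677098 (1084). The 400 peaks ranked just below the 100 highest were near an end in 16.8% of cases (13.2 to 20.8). In the sgRNA6 list, 38.4% (28.8 to 48.7) of the 100 highest peaks were within 5 Mb of an end and in the sgRNA5 list 12% (6.36 to 20.02). The lists differ in length, so 100 peaks are unlike parts of them. In the highest 1% of each list, the share was 29.6% (22.1 to 38.1) with sgRNA4. It was 26.1% (21.5 to 31.2) with sgRNA6 and 13.3% (6.81 to 22.5) with sgRNA5. The position of high peaks near the ends was thus also seen with sgRNA6, and no test set it apart for sgRNA4.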

How the data were processed

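Peak lists of 9 HA ChIP-seq libraries were analysed, of 12 samples described; the library without sgRNA and 2 amplicon samples were not analysed here. Alignment and peak calling used Bowtie, Bowtie2 and MACS on hg19, per the submitters' processing notes, which as used here give no versions or settings. The score of each peak is the authors' deposited MACS value. Replicates of sgRNA1, sgRNA2 and sgRNA3 were merged per guide. A sgRNA4 peak counted as shared when it overlapped a peak of another guide by at least 1 bp; bedtools 2.31.1 gave the same 7247. Equal scores were ranked by position. The outermost peak of the 9 lists stood for a chromosome's end. Chromosome Y was left out of distances to ends and of densities by chromosome or by distance to an end. The mean spacing and the 1 Mb windows include it. Shares carry exact binomial 95% intervals from scipy 1.17.1. Functions were tested on simulated data.

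The members and lists were chosen with earlier results of these data known. Named regions were the 10 highest peaks, the 10 highest shared, the 5 widest, the 5 highest met by all guides, the 5 best by summed rank with sgRNA5 and with sgRNA6, the 3 largest runs, densest 1 Mb windows and longest empty spans between peaks, and the highest peak per chromosome. Others of the 30 highest were chosen after their values were seen. Alternatives were stricter overlap or scores, merging within 1000 bp, and leaving out lists, replicates or chromosomes X and Y. A search for a sequence next to the adjacent motif, planned if a genome of the build was given, was not run, and no gene names were assigned.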

Additional observations from a re-analysis of the deposited data

How the results depend on the processing

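Of 82 alternative values for 10 results, 47 lay inside the interval of the main value and 35 outside it. The shared part of the list (53.1%) was 41.2% with 50% of both peaks overlapping, 48.3% with centres within 500 bp, 49.9% in the 50% of each list with higher scores, 47.0% at scores of 100 or more, 25.6% without the sgRNA6 list and 49.6% without the sgRNA5 list. In the same settings, the shared part of the 100 highest peaks (45%) was 32, 39, 34, 32, 29 and 43%, and it was 51% with peaks within 1000 bp merged. The share met by sgRNA6 (48.3%) was 35.0, 42.3, 44.0 and 44.9% in the first 4 of these settings and that met by sgRNA5 (23.1%) was 17.1, 21.0, 21.3 and 11.8%, and 23.9% with peaks within 1000 bp merged. The difference in median score (15.8, shared minus unshared) was 12.9 in the higher 50%, 10.5 at scores of 100 or more and 21.5 without sgRNA6. That in median width (185 bp) was 165 bp by centres, 210 bp at scores of 100 or more and 236.5 bp after merging. The excess of unshared peaks on chromosomes 16, 17, 19 and 22 (1.43 percentage points) was 3.97 in the higher 50%, 6.78 at scores of 100 or more and 3.65 without sgRNA6. Peaks with a neighbour within 10 kb (37.4%) were 22.4% in the higher 50%, 15.3% at scores of 100 or more, 28.2% after merging and 35.8% by centres. Peaks within 5 Mb of an end (19.6%) were 18.5% in the higher 50%, 18.2% at scores of 100 or more and 10.6% for 2 Mb. The cause was not tested where fewer peaks or lists do not account for it by construction.

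Leaving out replicate 1 or 2 of sgRNA1, sgRNA2 and sgRNA3 gave shared parts of 53.0 and 52.5%. The lower sharing of the 100 highest peaks, 24.1 points below the next 900, was examined after the data were seen and ranged from 17.8 to 25.8 points over 10 settings. No paired analysis was possible because sgRNA4 has 1 library and no result comes from a test. Depth is unknown, so the lists do not show how many places fell short of the score limit. The alternatives of the motif search were not run, for want of a genome of the build.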

Other observations

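The 5 widest sgRNA4 peaks ranked between 161 and 11658 by score. Of these, 3 lay next to each other on chromosome 1: at chr1:161411297-161418489 (7193 bp, score 144.8), at chr1:161418537-161422976 (4440 bp, 383.9) and at chr1:161423051-161429790 (6740 bp, 100.2). Gaps of 47 and 74 bp separated them, and each overlapped peaks of sgRNA1, sgRNA5 and sgRNA6. For the peaks of 4440 and 6740 bp, the highest partner had the same score and rank in each of these lists. It scored 95.7 with sgRNA1, 132.3 with sgRNA5 and 316.6 with sgRNA6. The same partner peaks can span both, so these overlaps are not to be read as independent. The 1 Mb window that held all 3 had 20 sgRNA4 peaks, 12 of them shared, with a median width of 944.5 bp. The other 2 of the 5 widest lay at chr8:58121219-58125910 (4692 bp, 85.9) and chr2:91802605-91806240 (3636 bp, 54.99), both met by sgRNA5 and sgRNA6.

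Many low scores were repeated exactly. Of the 13660 peaks, 9638 (70.6%) had a score found more than once, with 209 peaks at 58.65 and 154 at 50.80. Among the 86 peaks with scores of 500 or more, 2 had a repeated score, the peaks on chromosomes 6 and 7 at 1689. The order of low peaks is therefore less finely resolved than that of high ones.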
